A study of Mus musculus with 8 samples.

Results

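The comparison described is that of tail-tip fibroblasts reprogrammed with diclofenac against tail-tip fibroblasts reprogrammed without it, both from fibroblast set 1. Each side is 1 Clariom S mouse array, so 2 of the 8 arrays of the study enter the difference, and the other 6 serve to read it. The 2 arrays were picked by their labels. This choice, the gene lists and the rules were made with earlier results of these data known. Every row of the table that stands for a transcript cluster (the probe set of 1 gene) was taken, 22206 of 28846 rows, and the 6640 control probe sets were left out. All 8 cultures were postnatal mouse tail-tip fibroblasts transduced with retroviruses for the cocktail called GHMT, the cardiac transcription factors Gata4, Hand2, Mef2c and Tbx5. Set 1 held 4 cultures, which were GHMT alone, GHMT with diclofenac, GHMT with an EP4 antagonist, and GHMT with diclofenac plus PGE2. Set 2 held 4 cultures, which were GHMT alone and GHMT with an EP4 antagonist, a Wnt inhibitor or a TGFb inhibitor. The compounds were added together with the viruses. DMSO is named among the additions, without a statement of which cultures had it. The sources used here do not give the dose, the time of harvest, the mouse strain or the number of animals behind a set, and cells without the cocktail were not analysed here. A bulk culture of this kind can hold fibroblasts that took up the factors and fibroblasts that did not. A transcript can therefore lie lower because fewer cells carry it or because each cell carries less, and these cannot be told apart.

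Diclofenac is a non-steroidal anti-inflammatory drug that blocks cyclooxygenases, the enzymes that turn arachidonic acid into the precursor of the prostaglandins. Prostaglandin E2 (PGE2) made from it is released by fibroblasts and acts back on them through the receptors EP1 to EP4. EP4, encoded by Ptger4, couples to the stimulatory G protein and raises cyclic AMP, which drives transcription through CREB, a factor that binds the cyclic AMP response element. In direct cardiac reprogramming, fibroblasts given cardiac transcription factors switch on genes of the sarcomere (the contractile unit), of calcium handling and of cardiac hormones, and lose part of the fibroblast program of collagens and matrix proteins. The study asked whether interrupting the route from cyclooxygenase through PGE2 to EP4 helps that switch.

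Values are log2 expression, so a difference of 1 is 2-fold. The 2 arrays had nearly the same median over all clusters, 5.28 for GHMT and 5.29 for diclofenac, and correlated across clusters at r = 0.9929. A cluster was called above background where it exceeded the 95th percentile of the 23 background probe sets of its array, which lay at 5.73 for GHMT and 5.99 for diclofenac; 45.7% and 43.8% of clusters did. The labelled cell type showed in its markers. All 8 fibroblast markers that were matched lay above background on both arrays, among them Col1a1 (17.38 and 16.51) and Vim (18.75 and 18.71). Of 7 cardiomyocyte markers, 6 lay above background on both arrays, and Tnni3, the adult cardiac troponin I, lay at background on both (5.48 and 5.92). Of 22 markers of leukocytes, endothelium, keratinocytes, skeletal muscle, adipocytes, cartilage and bone, and Schwann cells, 21 lay at background on both arrays. The exception was the skeletal alpha-actin gene Acta1. Of the factors of the cocktail, Mef2c lay at 19.09 and 19.26, Tbx5 at 14.71 and 14.94, and Hand2 at 12.25 and 12.39 on the GHMT and diclofenac arrays. The Gata4 cluster lay at background on all 8 arrays, so the level of this factor could not be read here.

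With diclofenac the contractile genes of the heart stood higher and a set of fibroblast matrix genes stood lower. At least 2-fold higher were 232 of 22206 clusters, 1.04%, and at least 2-fold lower were 170, 0.766%. Among the 232, 203 lay above background on the diclofenac array, while among the 170 only 105 lay above background on the GHMT array. Most genes barely differed: the quartiles of all differences were -0.23 and 0.21 and the median was -0.01. At least 3-fold higher were 31 clusters and at least 3-fold lower 13, and the single cluster at least 4-fold lower was that of Pde4b, against 10 at least 4-fold higher.

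**Figure D1:**
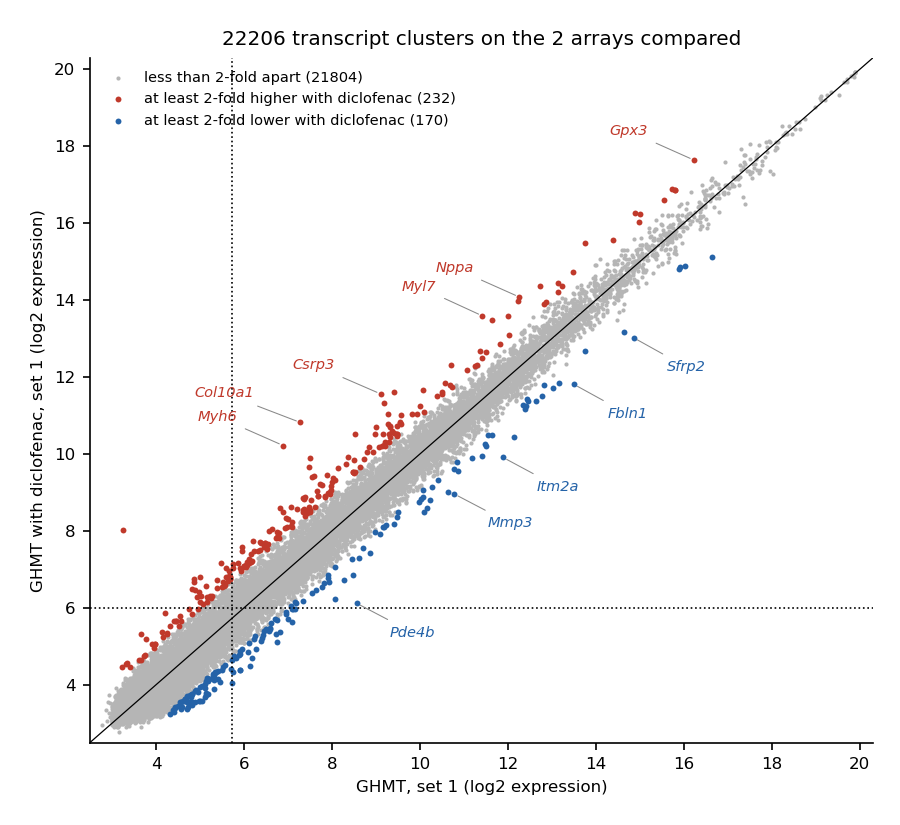
Each point is 1 of 22206 transcript clusters, with its log2 expression on the GHMT array (x axis) and on the diclofenac array (y axis) of set 1; red and blue points are at least 2-fold apart, the line marks equal values and the dotted lines the background levels. The cluster farthest above the line, at 3.25 and 8.02, has no gene symbol; Col10a1 and Myh6 are the farthest named ones, and Pde4b is the farthest below.

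With 1 array on each side the difference has no replicate check and no p-value of its own. A scale for it came from the EP4 antagonist, which had an array in each set. Its contrast with GHMT in set 2 was subtracted from that in set 1 and the result divided by the square root of 2. This gave a spread of 0.373 (SD over clusters) and put 329 clusters, 1.48%, at least 2-fold from 0 in either direction. The GHMT array of set 1 enters this reference and the diclofenac difference with the same sign, so the reference is not independent of that difference. The diclofenac differences had an SD of 0.379, with 402 clusters at least 2-fold apart. Over the whole array the diclofenac difference was thus about as wide as this reference, and weight lies on which genes make up its ends. A limma fit was run on all 8 arrays without a term for the set. It set the diclofenac array of set 1 against the mean of both GHMT arrays, so differences between the sets entered its estimates and its spread. The lone diclofenac array was assumed to vary like the GHMT and EP4 antagonist pairs. The fit called 0 clusters at an adjusted p under 0.05 (limma, two-sided, Benjamini-Hochberg), with 128 clusters at an unadjusted p under 0.05. That count depended on single arrays. Leaving out either EP4 antagonist array gave 17 calls, 9 higher and 8 lower, with Myh6, Myl7, Myl1, Smyd1 and Col10a1 among the former and Pde4b among the latter. The spread then rests on the GHMT pair alone, and the diclofenac array of set 1 is set against the mean of both GHMT arrays, so differences between the sets enter these calls. Cck was called lower at -2.89 where its difference within set 1 was 0.32. Without the GHMT array of set 2, 1 cluster was called, and without that of set 1, which leaves a contrast wholly between sets, 49.

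The sarcomere genes had the highest median difference of the 29 gene lists described here. These lists were chosen with earlier results of these data known. Of 39 sarcomere genes matched, 17 were at least 2-fold higher with diclofenac and 1 at least 2-fold lower, against 1.04% and 0.766% of all clusters. These counts include genes at background on both arrays, which 12 of the 39 were. The 1 lower gene, Myl2, was among these. Positive were 34 differences and negative 5, against 47.9% and 50.9% of all clusters. The median difference was 0.76, against -0.01 over all clusters. These values over all clusters also apply to the counts and medians of the other lists. For scale, the medians of the 29 lists in the EP4 antagonist reference had an SD of 0.135, and that of the sarcomere list was 0.16. Sarcomere genes with the EP4 antagonist of set 2, which shares no array with this comparison, had a median of 0.48 with 33 of 39 positive. With the TGFb and Wnt inhibitors of set 2 their medians were 0.24 and 0.26.

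**Figure D2:**
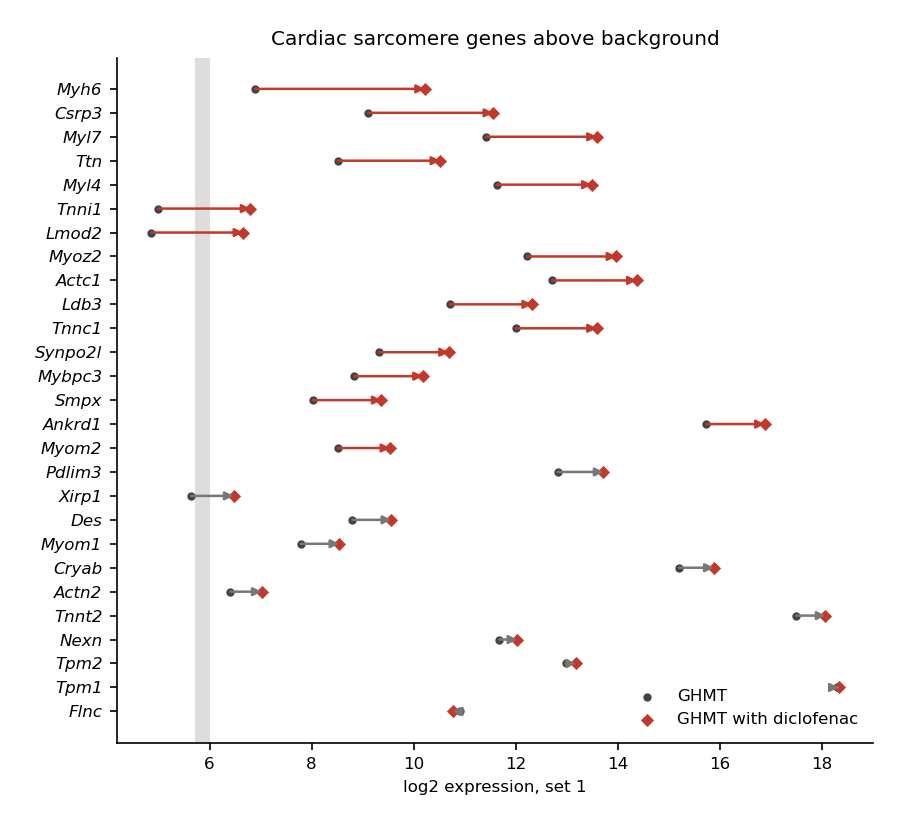
Log2 expression (x axis) of the 27 sarcomere genes above background on the higher of the 2 arrays, with an arrow from the GHMT value to the diclofenac value, red where the difference is at least 2-fold; the grey band spans the background levels of both arrays. All arrows but that of Flnc point to higher expression, with the longest for Myh6, from 6.89 to 10.22.

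Myosins led this group. Myh6, the alpha myosin heavy chain of the mouse heart, lay at 6.89 with GHMT, 10.22 with diclofenac, 8.57 with the EP4 antagonist and 5.99 with diclofenac plus PGE2 in set 1, a 10.1-fold difference between diclofenac and GHMT. Myl7, the atrial regulatory light chain, lay at 11.42, 13.59, 13.30 and 10.48 in the same order, 4.50-fold higher with diclofenac. Myl4, the atrial essential light chain, lay at 11.63, 13.49, 13.21 and 12.20, 3.63-fold higher. For all 3 the diclofenac array was the highest of set 1 with the EP4 antagonist next, and for Myh6 and Myl7 the array with PGE2 was the lowest of the 4. These 4 arrays share their controls, so the neighbouring values are shown for comparison only. The ventricular genes were different: Myl2, the ventricular regulatory light chain, lay at background on both arrays (5.13 and 3.73), and Myh7, the beta myosin heavy chain, also did (4.20 and 5.86).

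Thin filament and Z-disc genes followed. Actc1, the cardiac alpha-actin, lay at 12.72 with GHMT, 14.37 with diclofenac, 14.36 with the EP4 antagonist and 11.67 with diclofenac plus PGE2, 3.14-fold higher with diclofenac. Tnnc1, the cardiac and slow skeletal troponin C, was 2.99-fold higher (12.01 and 13.59), and Tnni1, the slow skeletal troponin I that the embryonic heart also uses, went from background at 4.99 to 6.80, at least 2.10-fold higher. Tnnt2, cardiac troponin T, stood at 17.50 and 18.07, a difference of 0.57. The troponin subunits thus differed by unequal amounts. Csrp3, the muscle LIM protein of the Z-disc, lay at 9.11, 11.56, 12.06 and 10.82 in the order of the 4 arrays, and was 5.46-fold higher with diclofenac. Here all 3 treated cultures lay above GHMT, also the one with PGE2. For Ttn, the giant spring protein titin, GHMT was again the lowest, at 8.52 against 10.52, 9.71 and 9.51. Ldb3 and Myoz2, both of the Z-disc, were 3.05-fold and 3.34-fold higher, and Mybpc3, which regulates myosin in the A-band, 2.53-fold higher (8.84 and 10.18). Lmod2, which elongates thin filaments, was at least 1.91-fold higher (4.86 and 6.66). Pdlim3, Des, Cryab, Actn2, Nexn, Tpm1 and Tpm2 differed in the same direction by less than 2-fold, and Flnc lay slightly lower.

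To show the regulatory sequence in front of these genes, the 250 bases before the RefSeq start (assembly GRCm38.p6) were searched on both strands for the MEF2 and CArG motifs, the elements bound by MEF2 factors and by serum response factor, and for shorter cardiac elements. Of the symbols on the array 13127 had exactly 1 such window. The MEF2 motif was in the windows of 3 of 107 genes at least 2-fold higher and above background on the diclofenac array (2.80%), in 0 of 62 at least 2-fold lower and above background on the GHMT array, and in 61 of all 13127 (0.465%). CArG was in 3 of 107 (2.80%), 1 of 62 (1.61%) and 1.36% of all. The 3 higher genes with a MEF2 match were Ttn, Myoz2 and Mybpc3, and 2 of the 3 with a CArG match were Myl7 and Actc1; the third was Cbr2, a carbonyl reductase. Their windows are given 5′ to 3′ on the coding strand, ending at the base before the start, with the match in capitals. The Ttn window is chr2:76982548-76982797 on the minus strand, with the MEF2 match 166 to 157 bases before the start. The Myoz2 window is chr3:123034988-123035237, minus strand, match 33 to 24 bases before. The Mybpc3 window is chr2:91117894-91118143, plus strand, match 90 to 81 bases before. The Myl7 window is chr11:5898783-5899032, minus strand, with the CArG match 61 to 52 bases before the start, and the Actc1 window chr2:114052876-114053125, minus strand, match 47 to 38 bases before.
Ttn: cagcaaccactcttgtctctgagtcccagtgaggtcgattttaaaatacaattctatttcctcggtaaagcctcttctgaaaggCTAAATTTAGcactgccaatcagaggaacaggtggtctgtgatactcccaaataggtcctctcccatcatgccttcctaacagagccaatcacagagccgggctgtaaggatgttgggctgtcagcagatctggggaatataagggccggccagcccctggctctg
Myoz2: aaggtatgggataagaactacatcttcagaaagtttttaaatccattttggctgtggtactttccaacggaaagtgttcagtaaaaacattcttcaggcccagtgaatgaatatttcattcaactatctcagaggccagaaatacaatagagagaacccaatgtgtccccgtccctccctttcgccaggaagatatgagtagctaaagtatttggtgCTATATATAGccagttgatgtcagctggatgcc
Mybpc3: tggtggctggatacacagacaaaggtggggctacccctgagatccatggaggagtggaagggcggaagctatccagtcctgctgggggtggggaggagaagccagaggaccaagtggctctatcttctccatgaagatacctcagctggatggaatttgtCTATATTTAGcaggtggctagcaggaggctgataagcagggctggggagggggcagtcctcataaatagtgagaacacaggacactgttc
Myl7: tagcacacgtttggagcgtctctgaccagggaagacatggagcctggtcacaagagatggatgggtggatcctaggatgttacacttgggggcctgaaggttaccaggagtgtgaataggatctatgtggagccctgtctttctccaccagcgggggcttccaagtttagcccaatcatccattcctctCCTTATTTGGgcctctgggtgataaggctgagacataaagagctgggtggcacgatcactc
Actc1: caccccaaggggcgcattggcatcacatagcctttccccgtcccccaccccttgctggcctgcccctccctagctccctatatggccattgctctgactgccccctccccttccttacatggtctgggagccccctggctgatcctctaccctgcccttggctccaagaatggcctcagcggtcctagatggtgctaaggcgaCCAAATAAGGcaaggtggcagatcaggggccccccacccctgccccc

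Read from the motif, 4 of the 61 genes with a MEF2 match in the window were at least 2-fold higher, 6.56%, against 0.952% of all genes with 1 window; the gene beyond the 3 above lay at background on both arrays. None was at least 2-fold lower. Of the 61, 17 lay above background on the higher array, which is 0.283% of the 6011 such genes with 1 window, and 3 of these 17 were at least 2-fold higher. The CArG share among the 6011 was 1.28%. The shares of the other elements depended on which genes they were set against, since the genes counted as higher or lower all lay above background. The letters AGATAA, for the GATA family, were in 8.41% of the higher, 8.06% of the lower, 9.23% of all and 5.09% of the 6011 windows of genes above background. The T-box letters AGGTGT were in 10.3%, 12.9%, 11.2% and 8.75% in that order, and the E-box letters CANNTG, used by Hand2 and its relatives, in 63.6%, 51.6%, 62.8% and 55.2%. The full cyclic AMP response element TGACGTCA was in 1.87%, 1.61%, 2.04% and 3.06%, and its shorter form TGACG, which lies inside it, in 22.4%, 19.4%, 20.7% and 29.5%. Against genes above background, the cyclic AMP letters were thus less frequent, and the GATA and T-box letters more frequent, in both groups of genes. No test was made, and the counts are small. The full cyclic AMP element was in 2 of 107 higher and 1 of 62 lower genes, and the GATA letters in 9 and 5. A match describes the letters in this window only.

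Among cardiac regulators and hormones, a few genes stood out. Of 23 matched, 4 were at least 2-fold higher and 1 lower, with 17 positive differences and a median of 0.23. The reference for the spread had a median of 0.18 for this list, and the EP4 antagonist of set 2 one of -0.07 with 10 of 23 positive, so single genes are described rather than the list. Nppa, which encodes atrial natriuretic peptide, lay at 12.26 with GHMT, 14.08 with diclofenac, 13.41 with the EP4 antagonist and 13.66 with diclofenac plus PGE2, 3.53-fold higher with diclofenac. All 3 treated cultures lay above GHMT. Smyd1, a methyltransferase of striated muscle needed for myofibril assembly, lay at 7.60, 9.43, 9.34 and 6.45, 3.56-fold higher with diclofenac and lowest with PGE2. Popdc2, a membrane protein of the heart that binds cyclic AMP, was 4.41-fold higher (9.19 and 11.33). The fourth, Myocd, which encodes the coactivator myocardin, lay at background on both arrays (4.55 and 5.78). Tbx18, a T-box factor of the sinus node and epicardium, was 2.10-fold lower (10.40 and 9.33), while Tbx20, a T-box factor of the working heart, was 1.99-fold higher (11.25 and 12.24).

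Among 32 genes of calcium handling and ion channels 5 were at least 2-fold higher and 0 lower, with a median of 0.16 (reference -0.01; EP4 antagonist of set 2 0.22). Ryr2, the calcium release channel of the heart, lay at 10.58 with GHMT, 11.84 with diclofenac, 11.13 with the EP4 antagonist and 9.94 with diclofenac plus PGE2, 2.40-fold higher with diclofenac. Casq2, which stores calcium beside it, lay at 14.99, 16.03, 16.16 and 15.44, 2.06-fold higher, and Rrad, a small GTPase that restrains the L-type calcium channel, at 9.58, 11.02, 11.01 and 9.18, 2.71-fold higher. In all 3 the diclofenac and EP4 antagonist arrays lay above both other arrays of set 1. Kcnj5, a subunit of the acetylcholine-gated potassium channel of the atrium, was 2.08-fold higher (8.48 and 9.54), and Sln (sarcolipin, which holds back the sarcoplasmic calcium pump) at least 1.28-fold higher. Jph2, which holds the calcium stores at the cell membrane, differed by 0.89.

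Of 31 genes of muscle energy metabolism 3 were at least 2-fold higher and 0 lower, with 21 positive differences and a median of 0.15, against 0.11 in the reference and 0.08 with the EP4 antagonist of set 2. Mb (myoglobin) went from background at 5.60 to 6.79, at least 2.08-fold higher. Fabp3, the fatty acid carrier of heart muscle, lay at 10.51, 11.62, 11.69 and 11.48 on the GHMT, diclofenac, EP4 antagonist and PGE2 arrays, 2.16-fold higher with diclofenac. GHMT alone was the low array for Fabp3. Chchd10, a mitochondrial protein among the 15 highest genes, lay at 7.54, 9.41, 9.10 and 7.46, 3.66-fold higher with diclofenac. Pdk2, a kinase that holds back pyruvate oxidation, was 2.07-fold higher. Skeletal muscle genes were mostly at background, 19 of 25 on both arrays. The 2 that were at least 2-fold higher were Myl1, the fast skeletal essential light chain, at 9.40, 11.62, 11.24 and 8.82, and Myh8, the perinatal myosin heavy chain, at 5.99, 7.10, 6.38 and 4.75. Of 16 smooth muscle genes none was 2-fold apart, and the median was 0.04.

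Some muscle genes outside the lists, picked after their values were seen, stood higher too. Rbm20, which directs the splicing of titin, lay at 9.00 with GHMT, 10.70 with diclofenac, 10.72 with the EP4 antagonist and 8.47 with PGE2, and Rbm24, another muscle splicing factor, at 5.14, 6.57, 6.92 and 5.20. Sorbs2, an adaptor at the Z-disc and intercalated disc, lay at 13.76, 15.49, 15.33 and 14.31. In these 3 genes the diclofenac and EP4 antagonist arrays lay above the other 2. They were picked with these values known, so this order is no separate observation.

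The gene with the largest named difference belonged to none of these groups. Col10a1, type X collagen of hypertrophic cartilage, lay at 7.28 with GHMT, 10.82 with diclofenac, 9.21 with the EP4 antagonist and 6.88 with diclofenac plus PGE2, 11.6-fold higher with diclofenac. In set 2 it lay at 8.44 with GHMT and 11.11 with the EP4 antagonist. Other cartilage and bone genes did not accompany it: Acan, Col2a1 and Sp7 lay at background on both arrays, and Sox9, the cartilage master factor, lay at 8.13 and 7.34. Rab3b, a small GTPase of secretory vesicles, lay at 7.50, 9.90, 9.46 and 6.33 in set 1, 5.28-fold higher with diclofenac. Agt, the precursor of angiotensin, lay at 7.47, 9.65, 9.18 and 7.12, 4.53-fold higher. Both were highest with diclofenac and lowest with PGE2, the order also seen for Col10a1. Sh3tc1 went from background at 4.87 to 6.74, at least 2.01-fold higher. The 15 highest named genes ended with Tnni1 at 1.81, and the next was Lmod2 at 1.80.

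**Figure D3:**
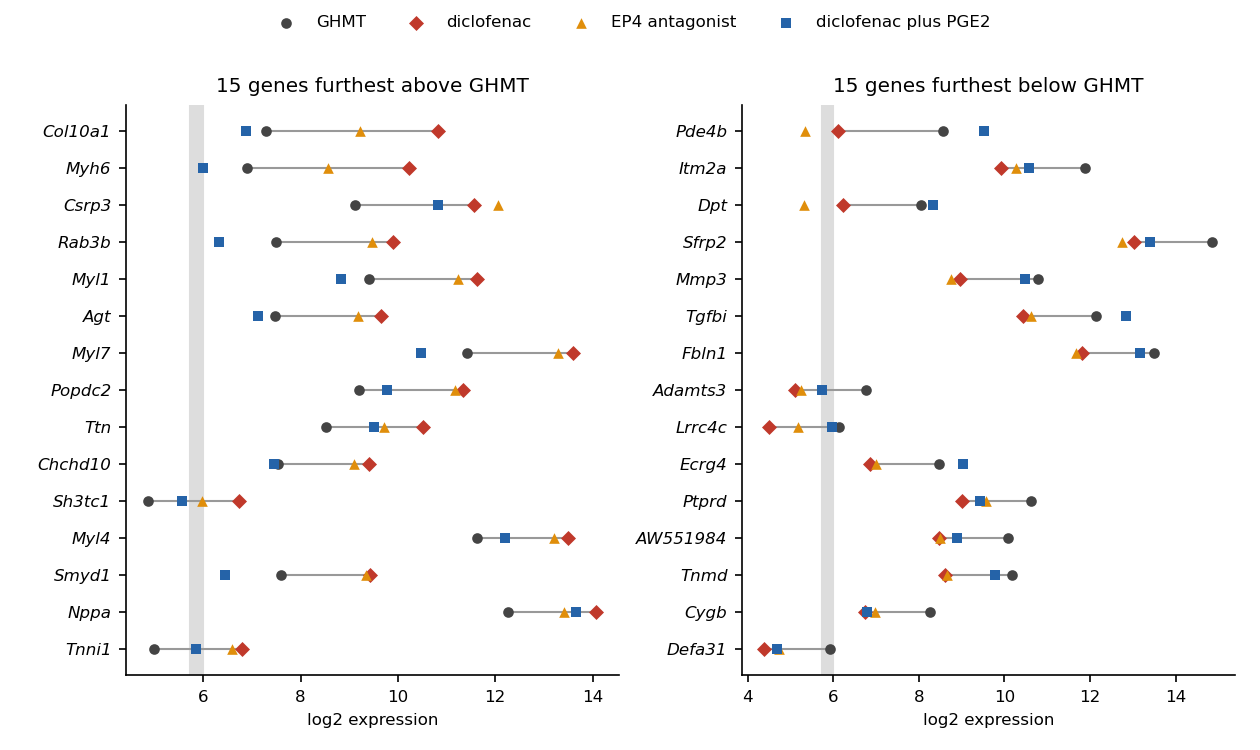
Log2 expression (x axis) on the 4 arrays of set 1 for the 15 named genes furthest above GHMT with diclofenac (left) and the 15 furthest below (right), with a line from GHMT to diclofenac and a grey band over the background levels of the 4 arrays. For Col10a1, Myh6, Rab3b and Myl7 the array with PGE2 lies below GHMT, and for Pde4b, Dpt, Tgfbi and Ecrg4 above it, whereas for Itm2a, Sfrp2, Ptprd and Cygb GHMT lies above all 3 treated arrays.

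The lower end of the difference was led by Pde4b, a phosphodiesterase that breaks down cyclic AMP and whose gene is itself induced by cyclic AMP. Pde4b lay at 8.56 with GHMT, 6.12 with diclofenac, 5.33 (background) with the EP4 antagonist and 9.52 with diclofenac plus PGE2, 5.43-fold lower with diclofenac. In set 2 it lay at 9.33 with GHMT and 5.90 with the EP4 antagonist. The cultures given diclofenac alone or the EP4 antagonist were the low ones, and the diclofenac value was just above the background level of its array. The 31 genes of cyclic AMP breakdown, synthesis and CREB response did not differ as a list: besides Pde4b none was 2-fold apart, 15 differences were positive, and the median was -0.01. Pde7a, another cyclic AMP phosphodiesterase, lay at 6.54 and 5.78. The RefSeq table held 4 windows for Pde4b, none with TGACGTCA. The shorter form TGACG had 1 match, in the window chr4:102421305-102421554.

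The prostaglandin pathway itself showed no 2-fold difference. Ptgs2, the inducible cyclooxygenase that diclofenac blocks, lay at 9.72 with GHMT, 9.47 with diclofenac, 9.81 with the EP4 antagonist and 10.03 with diclofenac plus PGE2. Ptges, the PGE2 synthase coupled to it, lay at 7.45, 7.18, 6.81 and 8.36. Both lay highest with PGE2, and the diclofenac values were within 0.27 of GHMT. Of 23 genes of prostanoid synthesis and breakdown 0 were 2-fold apart (range -0.60 to 0.58). Of 11 receptor genes 9 lay at background on both arrays, including those of EP1, EP2 and EP3. Ptger4, the EP4 receptor gene, was above background at 6.65 with GHMT, 6.50 with diclofenac, 6.34 with the EP4 antagonist and 7.60 with PGE2. Ptgfr, the receptor for prostaglandin F, lay at background on the first 3 (5.04, 4.48 and 4.62) and at 7.49 with PGE2. Ptgs1 was not matched here.

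Fibroblast genes stood lower as a group. Of 30 fibroblast identity genes 7 were at least 2-fold lower and 0 higher, 24 of 30 differences were negative and the median was -0.40. Over all clusters 50.9% of differences were negative and 0.766% at least 2-fold lower. Of 45 collagens and matrix genes 7 were at least 2-fold lower and 4 higher, 31 were negative and the median was -0.30. The EP4 antagonist of set 2 gave medians of -0.24 and -0.02 for these lists, and the reference for the spread gave -0.22 and -0.21. The fibroblast and matrix shifts were therefore closer to the reference than the sarcomere shift. The summed signal of the 8 fibroblast markers was 19.73 with GHMT and 19.36 with diclofenac on the log2 scale, and that of the 7 cardiomyocyte markers 17.60 and 18.28.

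Fbln1, the matrix glycoprotein fibulin-1, lay at 13.50 with GHMT, 11.81 with diclofenac, 11.68 with the EP4 antagonist and 13.17 with diclofenac plus PGE2, 3.23-fold lower with diclofenac. Tgfbi, a matrix protein induced by TGFb, lay at 12.14, 10.43, 10.61 and 12.84, 3.27-fold lower. Dpt, the dermal matrix protein dermatopontin, lay at 8.06, 6.22, 5.31 (background) and 8.32, 3.58-fold lower. In all 3 genes the array with PGE2 lay within 0.70 of GHMT, and the diclofenac and EP4 antagonist arrays lay at least 1.53 below it. Sfrp2, a secreted Wnt antagonist, had another order at 14.86, 13.02, 12.75 and 13.40, with GHMT above all 3 treated cultures, and in set 2 it was higher with the EP4 antagonist than with GHMT by 0.71. Itm2a, a membrane protein of mesenchymal cells, lay at 11.89, 9.91, 10.28 and 10.58, again with GHMT the highest of set 1.

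The main fibrillar collagens differed less. Col1a2 lay at 15.89 and 14.81 and Col3a1 at 16.03 and 14.89, 2.11-fold and 2.20-fold lower, while Col1a1 differed by -0.87 and Postn, the matricellular protein periostin, by -0.76 (13.33 and 12.57). Vcan, a large proteoglycan, was 2.36-fold lower (11.49 and 10.25), and so were Prg4, the lubricin of joint surfaces, by 2.69-fold (10.23 and 8.80), Igfbp4 by 2.40-fold and Mfap4 by 2.19-fold. Mfap4 lay lower still with PGE2, at 9.69. Spon1, encoding the matrix protein spondin 1, went the other way at 9.32, 10.74, 10.82 and 7.46, 2.68-fold higher with diclofenac, as did Eln, elastin, at 2.04-fold (6.18 and 7.21). Tnmd, a tendon membrane protein, lay at 10.17, 8.60, 8.65 and 9.79, 2.97-fold lower. Also among the lowest 15 were Ptprd, a receptor phosphatase, Cygb, the fibroblast globin cytoglobin (8.27 and 6.73), Ecrg4 (8.47 and 6.85) and AW551984. Adamts3, which processes procollagen, went from 6.76 to background at 5.11, at least 1.70-fold lower, and Lrrc4c, a synaptic adhesion protein, at least 1.11-fold lower. Defa31, a defensin of a family of near-identical genes, lay at 5.92, just above background, so no fold is given. It closed the 15 at -1.53, and the next was Rmrp, a non-coding RNA, at -1.50.

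Of 23 matrix proteases and inhibitors 3 were at least 2-fold lower and 2 higher, with a median of -0.30; the reference had a median of -0.34 for this list. Mmp3, stromelysin, lay at 10.78 with GHMT, 8.96 with diclofenac, 8.76 with the EP4 antagonist and 10.49 with diclofenac plus PGE2, 3.53-fold lower with diclofenac. GHMT alone and the culture with PGE2 lay above the other 2 cultures of set 1. Mmp19 and Mmp2, the gelatinase of fibroblasts, were 2.19-fold and 2.11-fold lower, and Mmp11 was 2.14-fold higher (6.00 and 7.10). The other gene counted as at least 2-fold higher lay at background on both arrays.

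Few inflammatory genes were measurable: 23 of 37 lay at background on both arrays, Il1b included. The median was -0.06, and 3 were at least 2-fold lower, of which only Il1r1 and Ppbp lay above background on the GHMT array. Il1r1, the receptor for interleukin-1, lay at 11.51, 10.22, 10.35 and 12.26 on the GHMT, diclofenac, EP4 antagonist and PGE2 arrays, 2.45-fold lower with diclofenac. Osmr, the oncostatin M receptor, lay at 10.81 and 10.03. The chemokine gene Ppbp was just above background with GHMT (5.82), so no fold is given. It lay at 7.96 with PGE2.

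Interferon-responsive genes had another order of the 4 arrays. Of 33 matched, 4 were at least 2-fold higher with diclofenac and 0 lower, 25 were positive and the median was 0.25. Over all clusters 47.9% of differences were positive and 1.04% at least 2-fold higher. Xaf1, a pro-apoptotic interferon target, lay at 7.01 with GHMT, 8.31 with diclofenac, 6.14 with the EP4 antagonist and 8.17 with diclofenac plus PGE2. Ifit1, an antiviral RNA-binding protein, lay at 6.08, 7.19, 4.60 and 7.00, and Bst2, the virus tether tetherin, at 6.04, 7.07, 5.74 and 7.03. Both cultures given diclofenac were the high ones, and the EP4 antagonist culture was the lowest. Stat2, a transducer of the interferon signal, had the same order at 8.54, 9.32, 7.88 and 9.44, a difference of 0.78 between diclofenac and GHMT, and Irf7 was at least 1.47-fold higher. The list varied widely between cultures of set 2: against GHMT its median was -0.02 with the EP4 antagonist, 2.16 with the TGFb inhibitor and 1.82 with the Wnt inhibitor. Ifit1 lay there at 5.15 with GHMT, 5.26, 11.58 and 11.61.

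Cell cycle genes lay lower as a list, by small amounts. Of 38 matched, 31 differences were negative, 2 were at least 2-fold lower and 0 higher, against 50.9% negative and 0.766% at least 2-fold lower over all clusters. The median was -0.20, against 0.02 in the reference and -0.19 with the EP4 antagonist of set 2. Bub1b, a spindle checkpoint kinase, lay at 8.61, 7.30, 7.53 and 8.16 on the 4 arrays, 2.48-fold lower with diclofenac, and its relative Bub1 was 2.23-fold lower. Mki67, the proliferation marker, lay at 12.77, 12.12, 12.29 and 12.89. Of 24 p53 targets none was 2-fold apart, 17 were positive and the median was 0.20, with Cdkn1a, the cell cycle inhibitor p21, at 16.16 and 16.81 and its regulator Mdm2 at 13.66 and 14.30.

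Genes known to answer non-steroidal anti-inflammatory drugs, the aryl hydrocarbon receptor or NRF2 did not shift as a list (27 matched, median 0.08). The 1 member at least 2-fold higher was Gpx3, the secreted glutathione peroxidase, at 16.23 with GHMT, 17.64 with diclofenac, 17.38 with the EP4 antagonist and 17.14 with PGE2, where GHMT alone was low. Cyp1a1, the classical target of the aryl hydrocarbon receptor, lay at background. Stress and unfolded protein response genes had a median of -0.10 and cholesterol synthesis genes one of -0.11, with 0 genes 2-fold apart in either. Of 27 hypoxia and glycolysis genes 22 were negative with a median of -0.25 and none 2-fold apart, among them Pdk1, which closes mitochondria to pyruvate (10.50 and 9.55), and P4ha2, a collagen prolyl hydroxylase (10.99 and 10.00). TGFb response and Wnt target lists had medians of 0.06 and 0.01, and only Tgfbi and Sfrp2 in them were 2-fold apart.

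Among 47 growth factors and receptors 3 were at least 2-fold higher and 2 lower, with a median of -0.13. Hbegf, a ligand of the EGF receptor, lay at 7.72 with GHMT, 9.21 with diclofenac, 9.16 with the EP4 antagonist and 7.89 with PGE2, 2.81-fold higher with diclofenac. Igfbp7 lay at 15.01, 16.23, 16.03 and 14.70 and Flt1, a receptor for VEGF, at 8.64, 9.65, 10.16 and 8.01, 2.33-fold and 2.01-fold higher. In all 3 the array with PGE2 lay nearer to GHMT than to diclofenac. Igfbp3, a binding protein for insulin-like growth factors, was 2.41-fold lower (12.78 and 11.51). Flt1 is also an endothelial marker, but the defining endothelial genes Pecam1, Cdh5, Tek and Tie1 lay at background on both arrays. In the same way Mcpt8, a basophil protease, was at least 1.15-fold lower and Mcpt4, another mast cell protease, at least 1.82-fold higher while Ptprc, the common leukocyte antigen, lay at background (5.05 and 4.41).

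**Figure D4:**
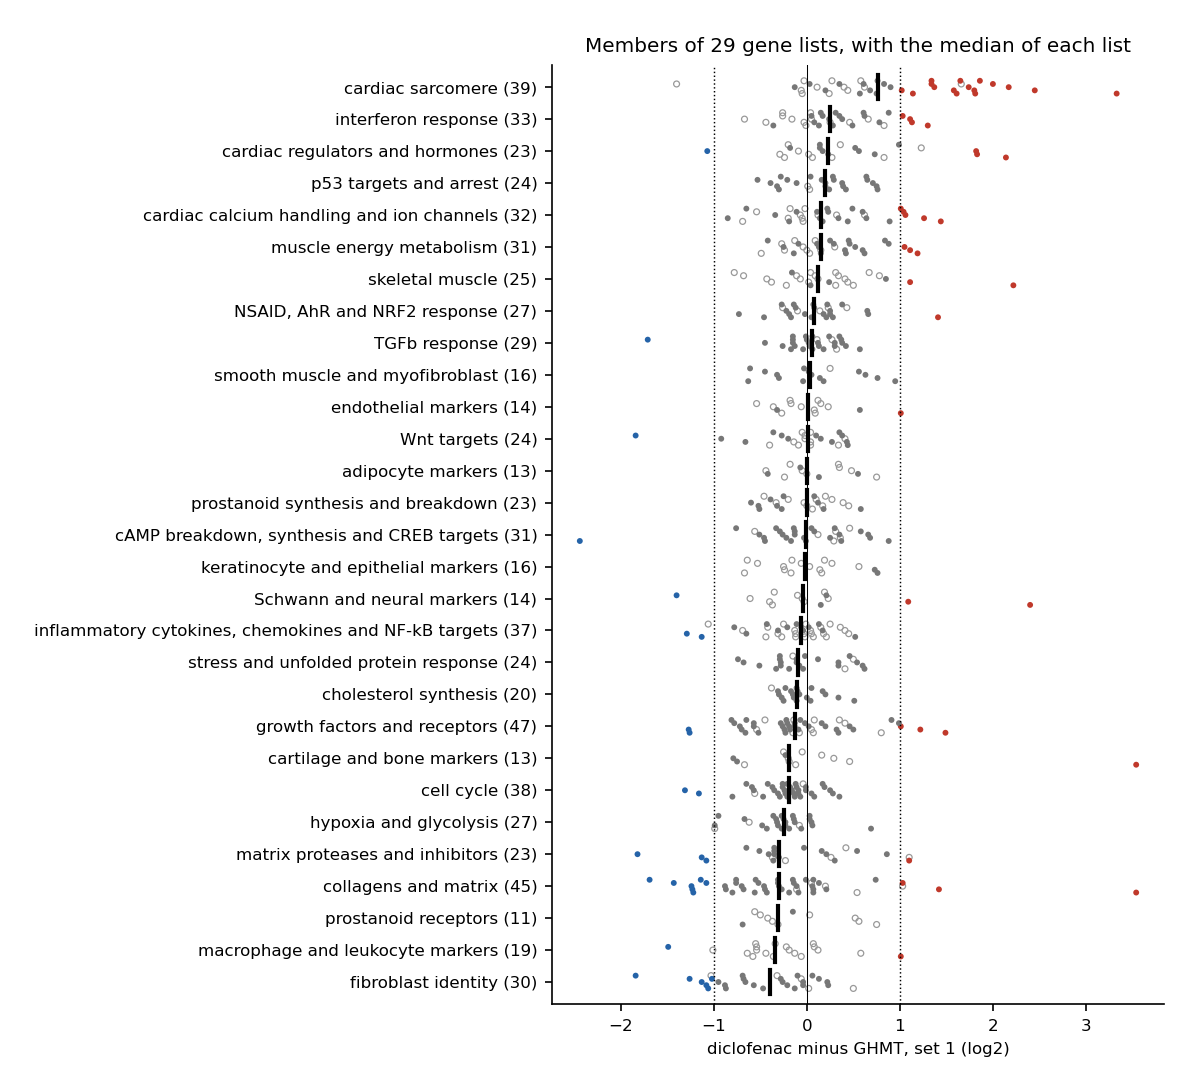
Differences between diclofenac and GHMT in set 1 (x axis, log2) for the members of 29 gene lists, with the number matched in brackets; the thick bar is the median, open circles are genes at background on the higher array, and red and blue points are at least 2-fold apart. The sarcomere list has the highest median, 0.76, and the fibroblast identity list the lowest, -0.40.

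Contrasts that share no array with this one allow the 308 clusters at least 2-fold apart and above background on the higher array (203 higher, 105 lower) to be read again. In the EP4 antagonist contrast of set 2, 211 of 308 had the same direction, 68.5%, against 53.3% of 10938 clusters above background on at least 1 array. The share was 66.0% of the higher and 73.3% of the lower clusters. Past 2-fold in the same direction were 34 of the 203 and 24 of the 105, and 3 and 2 were past 2-fold in the opposite direction. Over all 22206 clusters, those at background included, the EP4 antagonist of set 2 put 1.29% at least 2-fold higher and 1.45% lower. Over the 10938 clusters the 2 contrasts correlated weakly (Pearson r = 0.197, Spearman rho = 0.138), a description across genes with 1 array on each side. In the contrast of the EP4 antagonist with diclofenac plus PGE2 in set 1, 240 of 308 had the same direction, 77.9%, against 54.2% of the 10938. Past 2-fold with it were 68 higher and 29 lower clusters, against 1.31% higher and 1.12% lower over all 22206 clusters. These 4 arrays are all of set 1.

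The other inhibitors of set 2 also gave shares above those of the 10938 clusters above background on at least 1 array. The TGFb inhibitor of set 2 against GHMT gave the same direction for 199 of 308, 64.6%, and the Wnt inhibitor for 188, 61.0%, against 54.0% and 52.3% of the 10938. These contrasts use the same GHMT array of set 2 as the EP4 antagonist contrast, and no test separates their shares. For the 105 lower clusters the shares were 73.3% with the EP4 antagonist, 68.6% with the TGFb inhibitor and 51.4% with the Wnt inhibitor. For the 203 higher clusters they were 66.0%, 62.6% and 66.0% in that order. Past 2-fold in the same direction were 34, 44 and 49 of the 203, and 24, 27 and 8 of the 105. In the opposite direction were 3, 11 and 10, and 2, 10 and 16. Over all 22206 clusters these contrasts put 1.29%, 2.84% and 2.53% at least 2-fold higher and 1.45%, 2.52% and 1.57% lower.

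**Figure D5:**
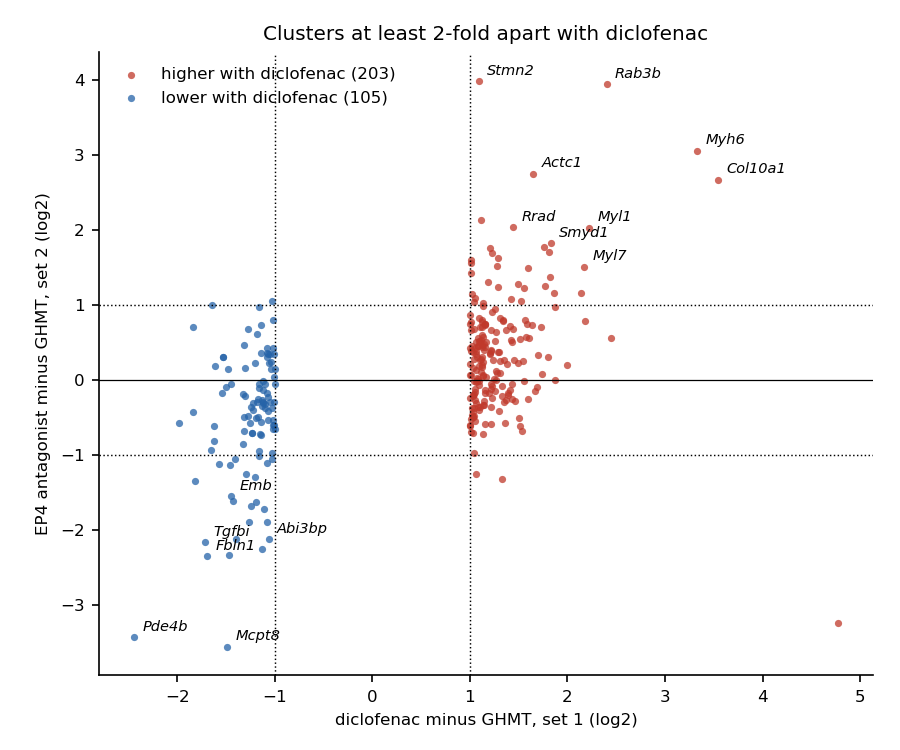
The 308 clusters at least 2-fold apart with diclofenac in set 1 (x axis, log2 difference), each with its log2 difference between EP4 antagonist and GHMT in set 2 (y axis); red points were higher and blue points lower with diclofenac, and dotted lines mark 2-fold. The upper right holds 34 clusters past 2-fold in both, with Rab3b, Myh6, Col10a1 and Actc1 far out, the lower left 24, with Pde4b and Mcpt8 farthest down.

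At least 2-fold in the same direction in all 3 contrasts (diclofenac against GHMT in set 1, EP4 antagonist against GHMT in set 2, and EP4 antagonist against diclofenac plus PGE2 in set 1) were 27 higher clusters, 26 of them named, and 18 lower, 17 of them named. Singly, these contrasts put 1.04%, 1.29% and 1.31% of all clusters at least 2-fold higher and 0.766%, 1.45% and 1.12% lower. The EP4 antagonist contrasts share a treatment, and their overlap over all clusters was not counted. The 27 and 18 therefore have no share over all clusters beside them and only name genes. The higher ones held the muscle genes Myh6, Myl1, Myl7, Myl4, Actc1, Myh8, Myom2, Smyd1, Popdc2, Rrad, Lmo7 and Akap6, which ties protein kinase A to the nuclear envelope of muscle. The rest were Col10a1, Rab3b, Cited1, Map3k7cl, Mal, Hbegf, Cox6b2, Cobl, Mtus2, Fam174b, Stmn2, Pear1, Flt1 and Rcan2. The lower ones were Pde4b, Mmp3, Tgfbi, Fbln1, Tnmd, Mcpt8, Aff2, Emb, Prg4, Chl1, Il1r1, Igfbp4, Vcan, Slc6a17, Ppbp, Rspo3 and Abi3bp. Some of these reached background in the diclofenac contrast. Against the background level, Stmn2 was there at least 1.51-fold higher and Mcpt8 at least 1.15-fold lower, and Ppbp and Chl1 had no bound above 1. Cited1, a transcriptional coregulator, lay at 9.27, 11.04, 10.82 and 7.85 on the 4 arrays of set 1 and at 5.90 with GHMT and 7.15 with the EP4 antagonist in set 2. Rspo3, a secreted amplifier of Wnt signals, lay at 12.35, 11.27, 11.29 and 13.30 in set 1 and at 13.04 and 11.15 in set 2. In set 1 the diclofenac and EP4 antagonist cultures lay on one side and the other 2 on the other for both genes. Their selection used both contrasts within set 1, which favours this order. In set 2 the TGFb and Wnt inhibitor cultures had Cited1 at 7.28 and 7.78, above the EP4 antagonist, and the TGFb inhibitor culture had Rspo3 at 10.60, below it.

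Several genes at the ends of the diclofenac difference did not have it in set 2. Ttn was higher with the EP4 antagonist of set 2 by 0.20 and Csrp3 by 0.56, against 2.00 and 2.45 with diclofenac, and Sh3tc1 did not differ (0.00). Sfrp2 and Lrrc4c went the opposite way, by 0.71 and 1.00, and Dpt was lower by 0.43 against 1.84 with diclofenac. Plagl1, an imprinted zinc finger gene, was lower with diclofenac (12.82 and 11.79) and higher with the EP4 antagonist in set 2 (9.98 and 11.03). The cluster with the largest difference of all, 4.77, has no symbol. It lay at 3.25 with GHMT, 8.02 with diclofenac, 3.47 with the EP4 antagonist and 5.17 with PGE2, and in set 2 at 5.72 with GHMT and 2.48, 4.61 and 4.76 with the EP4 antagonist, TGFb inhibitor and Wnt inhibitor. It lay above background on the diclofenac array alone.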

How the data were processed

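RNA of 8 cultures was measured on 1 Clariom S array each. The deposited values are log2 expression, which the authors normalized with SST-RMA, a robust multichip average after a transformation of the signal space, in Affymetrix Expression Console 1.4, per the series' design text. The genome build is not given in the sources used here, nor whether both sets were normalized as one. Differences between values near background are the least certain.

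Symbols came from the platform annotation. They were joined to 19572 clusters (19505 symbols, 55 on more than 1 cluster, taken at the cluster with the highest mean), and 2634 clusters are unnamed here. Differences were taken between the 2 arrays and counted at 2-fold. Where the lower array lay at background, the fold is a lower bound against the background level of that array ("at least"), and none is given where the bound is under 1. Of 808 list entries 748 were matched (722 genes). Named genes were the 15 highest and 15 lowest with 1 symbol and the higher array above background, skipping predicted genes, plus up to 5 members of each list and a fixed set of 23, of which Ptgs1 and Gdf15 were not matched. The members, lists and rules were chosen with earlier results of these data known. The labels do not say whether cultures are independent, so the limma p-values measure the spread between these arrays. limma 3.58.1 in R 4.3.3 (lmFit, eBayes) was tested on simulated data; the rest used Python 3.11.15 with pandas 2.3.3 and numpy 2.4.6. Promoter windows came from RefSeq (32851 windows, GRCm38.p6). Alternatives were quantile normalization, median centring, a lowess curve (span 0.3), a background filter, folds of 1.5 and 3, the set as a block, and single arrays left out. The number of arrays limits the precision.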

Additional observations from a re-analysis of the deposited data

How the results depend on the processing

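At 1.5-fold, 1212 clusters were higher and 1201 lower; at 3-fold, 31 and 13. With the higher array above background, 105 were lower. The same direction in the EP4 antagonist contrast of set 2 was found for 60.2% of clusters at least 1.5-fold apart, 80.5% at least 3-fold apart and 64.7% without the background filter. Among members above background on the higher array the list medians were 1.34 (sarcomere), 0.34 (calcium handling and ion channels), 0.52 (cardiac regulators and hormones), 0.42 (muscle energy metabolism), 0.55 (skeletal muscle), -0.57 (fibroblast identity), -0.27 (prostanoid synthesis), 0.57 (endothelial), 0.75 (keratinocyte), -0.49 (cartilage and bone) and 0.21 (Schwann and neural); that filter leaves fewer genes and favours those high on 1 array. Under the 3 scalings no named gene of 154 changed direction or moved by more than 0.18, list medians moved by at most 0.07, and the median of all clusters was between -0.02 and -0.0014.

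The set numbers are shared by GHMT and the EP4 antagonist, and the labels do not say what they mark. Deviations of these 2 pairs from their group means correlated across clusters at r = 0.724. With the set as a replicate block limma called 0 clusters (974 at an unadjusted p under 0.05); with the block and a trended, robust prior it called 1, Col10a1, higher with diclofenac (limma, adjusted p = 0.0454; 1052 unadjusted). Without 1 array, a choice made after seeing the data, the fit without the block called between 1 and 49. Such fits have 1 or 2 residual degrees of freedom, and the cause of these shifts was not tested. Depth is replaced here by signal over background, which leaves more than 50% of clusters unread on each array.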
